A study of Mus musculus with 36 samples.

Results

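The mitochondrial carriers of the Slc25a family were followed over the 24-h day in the liver of male mice exposed to chronic intermittent hypoxia (IH) or to normoxia. The tables held 47 gene symbols beginning with Slc25a, each on 1 row, among 24066 symbols listed on 1 row. The 37 symbols with a mean of at least 0.5 FPKM (fragment counts scaled by transcript length and library size) over the 36 libraries are the members described here. Of the other 10, Slc25a27 (0.370 FPKM), Slc25a24 (0.324 FPKM), Slc25a36 (0.248 FPKM) and Slc25a2 (0.125 FPKM) passed the 0.1 FPKM needed for testing, 4 were lower and Slc25a41 and Slc25a54 were listed at 0 in every library. The member nearest the threshold was Slc25a35 (0.624 FPKM), and the nearest symbol below it was Slc25a27.

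All mice were wild-type C57BL/6JRj males aged 16 weeks, housed 5 to a cage under 12 h of light and 12 h of dark with free access to chow. IH mice received 60 cycles of low oxygen per hour, with inspired oxygen falling to 5% and returning to 21%, from ZT0 (lights on) to ZT8 each day for 4 weeks, and control mice received air cycles in place of low oxygen. Livers of 3 mice per condition were taken at ZT0, ZT4, ZT8, ZT12, ZT16 and ZT20, which gave 12 groups and 36 poly-A libraries. ZT4 lies within the daily exposure and ZT8 at its end.

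Slc25 proteins are transporters of the inner mitochondrial membrane, with a few members in other membranes, built from a repeated pair-of-helices module around a central substrate site. They exchange nucleotides, phosphate, carboxylates, amino acids, cofactors, metals and other solutes between cytosol and matrix, and so connect oxidative phosphorylation with cytosolic metabolism. In hepatocytes they carry the aspartate and ornithine steps of the urea cycle, citrate export for lipid synthesis, malate exchange for gluconeogenesis and acylcarnitine entry for fatty acid oxidation.

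No member was at 0 in any library. The hepatocyte markers Alb, Ttr, Apoa1, Cps1 and Tat summed to between 35820 and 62572 FPKM, and markers of skeletal muscle, white fat and brown fat stayed below 0.1 FPKM. The library of control mouse 2 at ZT12 stood apart: its FPKM values summed to 808274 against at most 626371 elsewhere, its Kupffer and macrophage markers summed to 127 FPKM against a control median of 26.1 FPKM, and it held the lowest value of 16 of the 37 members. Saa1, an acute-phase gene, exceeded 10000 FPKM in that library, in IH mouse 2 at ZT0 and in control mouse 3 at ZT16. For control mouse 2 at ZT12, the factor by which median-of-ratios scaling divides the values was 0.76, against 0.91 to 1.06 in the other libraries. The typical gene was thus also low there, and the share of all genes lowest there was not counted. Some counts below are given with and without the ZT12 library. In whole liver, fewer cells of a type and less RNA per cell cannot be told apart.

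FPKM is scaled by transcript length, so levels can be set side by side across members. The highest was Slc25a5, the ADP/ATP translocase form that predominates in liver, at 281.8 ± 29.7 FPKM (SD, n = 36). Slc25a39, which carries glutathione into mitochondria, followed at 237 ± 17.4 FPKM, and Slc25a47, a liver-enriched carrier without a settled substrate in the role list used here, at 232 ± 108 FPKM. The SDs of these 3 overlapped, and each SD includes change over the day. Their order within single libraries was not tested. Slc25a3, the phosphate carrier (169 ± 12.4 FPKM), and Slc25a1, the citrate carrier (140.1 ± 16.1 FPKM), completed the 5 members at or above 100 FPKM. The spread of Slc25a47 ran from 83.0 to 453 FPKM, and that of Slc25a39 from 212 to 285 FPKM. Slc25a4 and Slc25a5 are close paralogs, and how reads matching both were divided was not given in the sources used here. Within the ADP/ATP carriers, Slc25a4, the form predominant in heart and muscle, had 2.71 FPKM and Slc25a31, the germ-cell form, averaged 0.0179 FPKM.

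**Figure D1:**
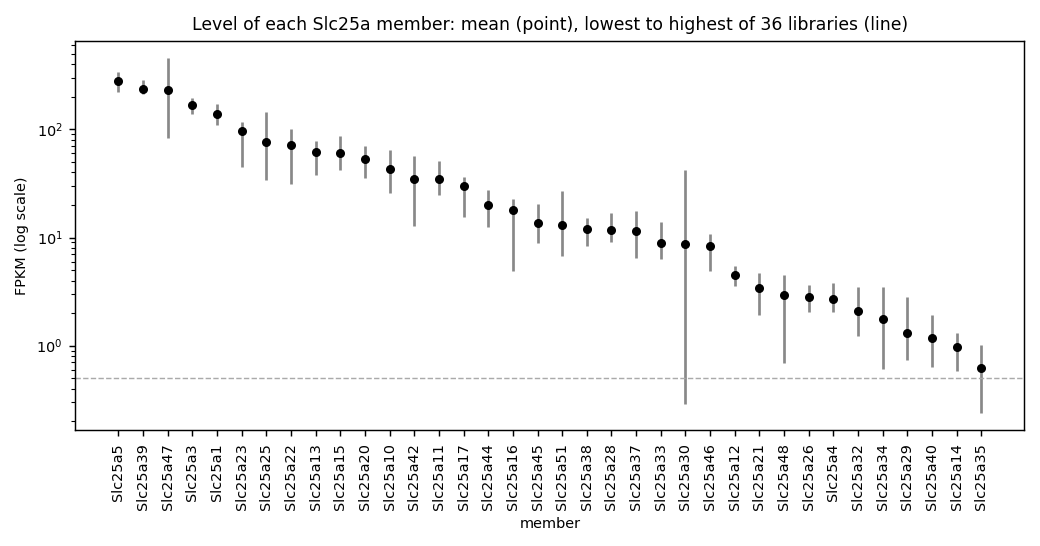
FPKM (log scale) of 36 of the 37 members, ordered by mean; the point is the mean and the line runs from the lowest to the highest of the 36 libraries, with the 0.5 FPKM threshold dashed. Slc25a5 leads at 281.8 FPKM, Slc25a35 is last at 0.624 FPKM, and Slc25a30 spans the widest range, from 0.288 to 42.3 FPKM.

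Among the urea cycle and amino acid carriers, the glutamate carrier Slc25a22 (71.7 FPKM), the aspartate/glutamate carrier Slc25a13 (61.3 FPKM) and the ornithine carrier Slc25a15 (61.1 FPKM) were of like level, while Slc25a12, the aspartate/glutamate form of muscle and brain, had 4.54 FPKM. Slc25a44, which takes up branched-chain amino acids, had 20.0 FPKM, Slc25a38, the glycine carrier used in heme synthesis, 12.0 FPKM, and Slc25a29, a carrier of basic amino acids, 1.31 FPKM. The carboxylate carriers comprised Slc25a1, the dicarboxylate carrier Slc25a10 (43.003 FPKM), the oxoglutarate/malate carrier Slc25a11 (34.7 FPKM) and the oxodicarboxylate carrier Slc25a21 (3.38 FPKM). The carnitine/acylcarnitine carrier Slc25a20 stood at 53.2 FPKM. The calcium-sensitive ATP-Mg/phosphate carriers Slc25a23 and Slc25a25 reached 96.5 and 76.6 FPKM. The mitochondrial iron importers Slc25a37 (mitoferrin-1) and Slc25a28 (mitoferrin-2) were near each other at 11.5 and 11.8 FPKM. Cofactor carriers ranged from 2.096 FPKM for Slc25a32, linked to folate and FAD, to 34.9 FPKM for Slc25a42, a coenzyme A carrier.

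Most members varied over the day. With both conditions fitted together by a 24-h cosine (limma F test on log2(FPKM + 1), Benjamini-Hochberg adjusted over the 13215 genes tested, called at 0.05), 24 of the 37 members (64.9%) were called, beside 55.4% of all genes tested. With all 36 libraries the share of members was thus near that of the liver transcriptome. Without control mouse 2 at ZT12 the number of members called was 27. The share of all genes in that refit is not given here, so the rise is not read as particular to the members. All 4 metal and glutathione carriers, 5 of 8 nucleotide and cofactor carriers, 4 of 7 amino acid carriers, 4 of 6 members without a settled substrate, 3 of 4 carboxylate carriers, 2 of 3 ADP/ATP and phosphate carriers, 1 of 2 uncoupling-protein-like members (Slc25a14) and the carnitine carrier were called. Neither ATP-Mg/phosphate member passed. Of the 4 tested symbols below 0.5 FPKM, the ATP-Mg/phosphate carrier Slc25a24 (adjusted p = 0.00179) and Slc25a2 (adjusted p = 0.0317) were called, and Slc25a27 and Slc25a36 were not.

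The fitted peaks were spread around the clock. Of the 24 called members, 4 peaked between ZT0 and ZT6, 7 between ZT6 and ZT12, 8 between ZT12 and ZT18 and 5 between ZT18 and ZT24. Among all 7325 called genes the corresponding shares were 37.6%, 20.6%, 13.6% and 28.3%. The late-light group held Slc25a47, Slc25a28, Slc25a32, Slc25a26 (the S-adenosylmethionine carrier), Slc25a40 (the paralog of Slc25a39), Slc25a10 and Slc25a11. The early-dark group included Slc25a3, Slc25a5, Slc25a37, Slc25a38, Slc25a39, Slc25a20 and Slc25a51 (the NAD carrier). Slc25a37, Slc25a38 and Slc25a39, each known to be needed for heme synthesis, peaked near one another, at ZT14.4, ZT15.6 and ZT13.2. Slc25a5 and Slc25a3, which supply ADP and phosphate to ATP synthase, peaked at ZT14.6 and ZT14.5. The ADP/ATP carrier Slc25a4 had a fitted peak at ZT7.73 and was not called (adjusted p = 0.076). These groupings were not set beforehand, and closeness of peaks was not tested. Paralogs did not always share a phase: the mitoferrins Slc25a28 and Slc25a37 peaked at ZT8.23 and ZT14.4, and Slc25a40 and Slc25a39 at ZT6.48 and ZT13.2.

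**Figure D2:**
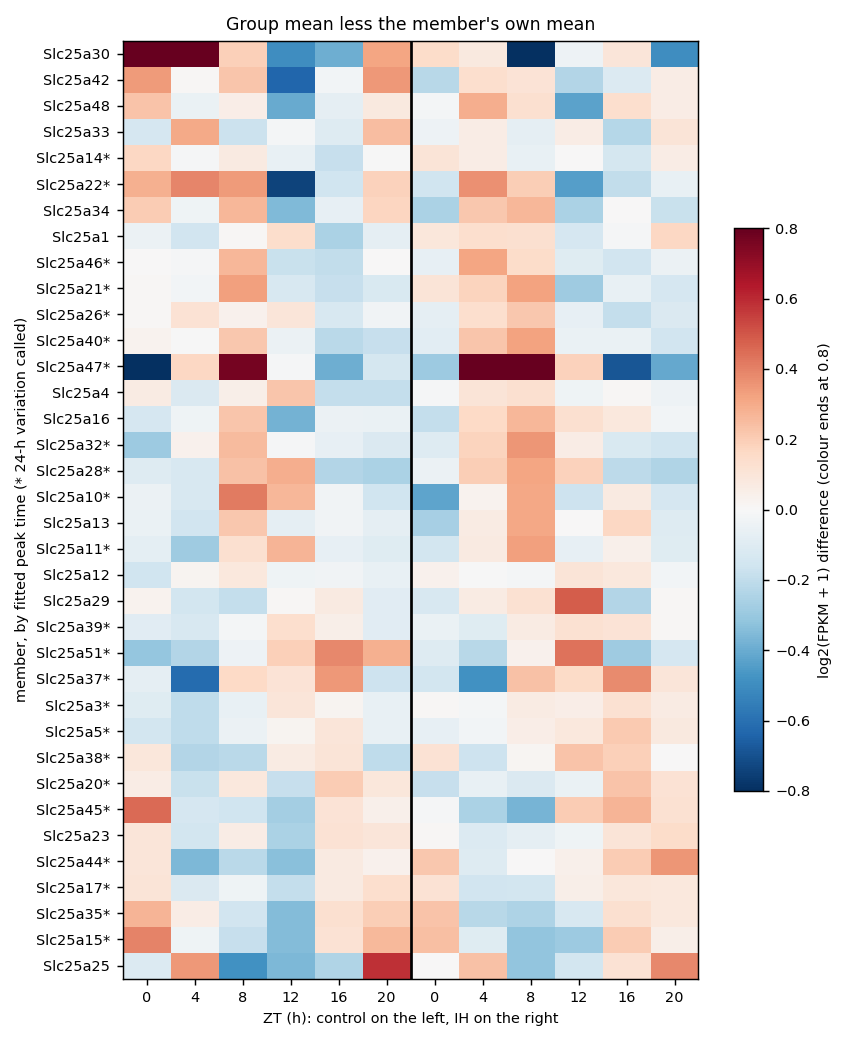
Mean log2(FPKM + 1) of each of the 12 groups (3 mice each) less the member's own mean for 36 of the 37 members, with control time points left of the line and IH time points right of it, and members ordered from top to bottom by fitted peak time; an asterisk marks members called for 24-h variation. The Slc25a47 row has the strongest light-phase rise, with a fitted peak at ZT7.42, and the Slc25a15 row near the bottom falls at ZT8 and ZT12 in both conditions.

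The smallest p in this test belonged to Slc25a28 (mitoferrin-2, chromosome 19, 43663801 to 43674881, minus strand in GRCm38). Control mice had 9.93, 12.5 and 9.54 FPKM at ZT4, 13.2, 14.3 and 14.0 FPKM at ZT8 and 9.85, 9.57 and 9.80 FPKM at ZT16. IH mice had 12.9, 13.3 and 14.2 FPKM, 15.4, 15.1 and 13.7 FPKM and 10.8, 9.22 and 9.78 FPKM at the same times. Every ZT8 value in either condition exceeded every ZT16 value, and at ZT4 the 3 IH mice lay above the 3 controls. The fitted peak was at ZT8.23 with a peak-to-trough ratio of 1.45-fold on the log2(FPKM + 1) scale (adjusted p = 1.9e-07).

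Slc25a15, the ornithine carrier that feeds the urea cycle (chromosome 8, 22375551 to 22398597, minus strand), had the opposite timing. Its controls measured 79.1, 73.1 and 87.1 FPKM at ZT0 and 42.05, 49.6 and 50.0 FPKM at ZT12. Its IH mice measured 68.5, 67.0 and 78.8 FPKM at ZT0 and 43.7, 46.7 and 57.8 FPKM at ZT12. The ZT0 and ZT12 values did not overlap in either condition. The fitted peak was at ZT21.5 and the ratio 1.52-fold (adjusted p = 2.37e-07). The other urea cycle transporter, Slc25a13, peaked at ZT10.0 without reaching the threshold (adjusted p = 0.0609).

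Slc25a47 had the largest swing of all members, 2.57-fold from trough to peak with a peak at ZT7.42 (adjusted p = 2.63e-05). The gene lies on chromosome 12 from 108836046 to 108856815 on the plus strand. At ZT0 controls had 157, 84.1 and 83.0 FPKM and at ZT8 282, 349.8 and 453 FPKM. Under IH the ZT4 mice already had 421, 357 and 436 FPKM, above the 291, 187 and 237 FPKM of the ZT4 controls. By ZT16 the order was turned, with 119, 122 and 149 FPKM under IH and 156, 168 and 153 FPKM in controls. The conditions did not overlap at ZT4 or at ZT16, and overlapped at the other 4 time points. Neither difference passed limma at single time points (adjusted p = 0.2 at ZT4, unadjusted P = 0.354 at ZT16). Nor did the difference of rhythm pass its F test (adjusted p = 0.92).

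Slc25a35, a member near the threshold without a settled substrate (chromosome 11, 68968131 to 68974365, plus strand), had control values of 0.978, 0.923 and 0.921 FPKM at ZT0 and 0.240, 0.298 and 0.249 FPKM at ZT12. At ZT4 its IH mice had 0.375, 0.430 and 0.326 FPKM and its controls 0.540, 0.869 and 0.626 FPKM, with all IH values lower. The fitted peak was at ZT21.3 (1.40-fold, adjusted p = 1.49e-06), and with a pseudocount of 0.1 FPKM in place of 1 FPKM the ratio was 2.24-fold. Its exons share bases with Rangrf on the opposite strand in the GENCODE vM21 annotation. The libraries were strand-specific, but whether strand was used in making the FPKM values was not given in the sources used here.

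Slc25a39 (chromosome 11, 102402985 to 102407946, minus strand) moved little but regularly. Its controls had 217, 219.6 and 212 FPKM at ZT4 and 285, 233 and 266 FPKM at ZT12, and its IH mice 219, 218 and 225 FPKM and 263, 264 and 246 FPKM. All ZT12 values were above all ZT4 values within each condition. The fitted ratio was 1.17-fold with a peak at ZT13.2 (adjusted p = 1.6e-05). Among members further down the order, the glutamate carrier Slc25a22 peaked at ZT2.58 (1.63-fold, adjusted p = 0.000117) and Slc25a37 at ZT14.4 (1.59-fold, adjusted p = 0.000266).

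Examples from the other roles filled in the day. Slc25a22, which carries glutamate for ammonia release in the matrix, had control values of 89.8, 86.0 and 99.2 FPKM at ZT4 and 49.5, 31.0 and 45.6 FPKM at ZT12, and IH values of 97.9, 86.7 and 86.0 and 50.7, 48.5 and 53.7 FPKM. Its ZT12 values were lower than its ZT4 values in every mouse of both conditions. The mitoferrin Slc25a37 instead had its lowest group means at ZT4, with 7.01, 7.35 and 6.51 FPKM in controls and 7.52, 7.70 and 7.84 FPKM under IH, against 15.1, 17.0 and 11.8 and 16.2, 13.0 and 15.5 FPKM at ZT16. The dicarboxylate carrier Slc25a10 peaked at ZT9.78 (1.37-fold, adjusted p = 0.00279) and the folate and FAD carrier Slc25a32 at ZT8.11 (1.36-fold, adjusted p = 7.16e-05). For Slc25a32 the ZT8 values were 2.16, 3.00 and 2.85 FPKM in controls and 3.46, 2.67 and 2.64 FPKM under IH, all above the ZT0 values of 1.46, 1.46 and 1.57 and 1.57, 2.04 and 1.95 FPKM. The carnitine/acylcarnitine carrier Slc25a20 passed narrowly, with a peak at ZT17.5 (1.20-fold, adjusted p = 0.0434). Slc25a46, which acts in mitochondrial membrane dynamics at the outer membrane, peaked at ZT4.80 (1.26-fold, adjusted p = 0.00203), and its IH mice at ZT4 had 10.4, 10.45 and 10.6 FPKM against 8.27, 8.497 and 7.76 FPKM in controls, with no overlap.

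**Figure D3:**
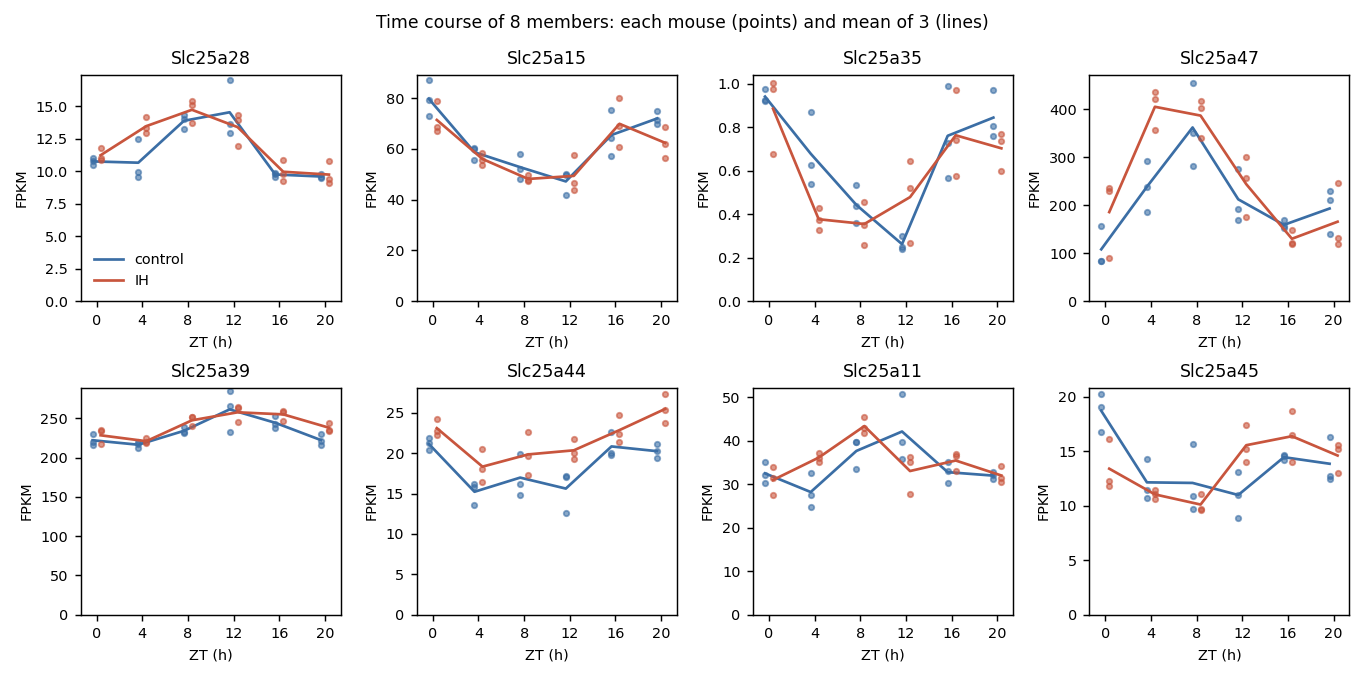
FPKM of 8 members against ZT in control (blue) and IH (red) mice, with each mouse as a point, offset sideways by condition, and the mean of 3 mice as a line. Slc25a47 rises to between 357 and 436 FPKM at ZT4 under IH, above the 187 to 291 FPKM of controls, while Slc25a15 falls through the light phase in both conditions.

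**Figure D4:**
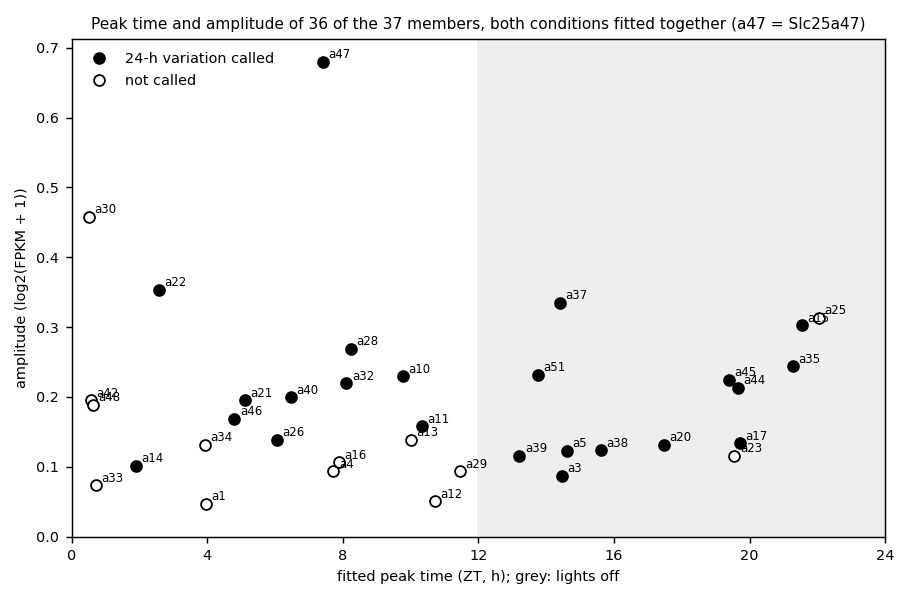
Fitted peak time (ZT, hours) against amplitude on the log2(FPKM + 1) scale for 36 of the 37 members with both conditions fitted together; filled points were called for 24-h variation, open points were not, and the dark phase is shaded. Slc25a47 has the largest amplitude, 0.68, and called members occur in the light and the dark phase.

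Promoter sequence is shown for Slc25a28, Slc25a15, Slc25a47 and Slc25a39, which with Slc25a35 (no window matched) had the 5 smallest p in the 24-h test, and for Slc25a45, which had the smallest p for a difference of rhythm between conditions, so that the letters around their start sites can be read beside their timing. RefSeq windows (GRCm38.p6, 250 bases before to 50 after a start site) were matched for 29 of the 37 members, and those without a match included Slc25a26, Slc25a32, Slc25a35, Slc25a37, Slc25a44, Slc25a46 and Slc25a51. The E-box CACGTG, bound by CLOCK and BMAL1, was searched along with the ROR/REV-ERB core AGGTCA, the cAMP response element TGACGTCA and the D-box TTATGTAA, each on both strands. CACGTG and TGACGTCA read the same on both strands, and no searched motif contains another. The 250 bases before each start site follow, 5′ to 3′ on the strand of the gene, in lower case with any match in capitals.
Slc25a47, chr12:108850879-108851128, plus strand: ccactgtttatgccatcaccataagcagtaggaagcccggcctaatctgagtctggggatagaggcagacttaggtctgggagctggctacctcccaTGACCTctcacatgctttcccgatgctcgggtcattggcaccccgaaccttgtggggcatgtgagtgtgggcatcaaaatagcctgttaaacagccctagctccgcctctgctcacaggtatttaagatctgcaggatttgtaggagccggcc
Slc25a28, chr19:43674882-43675131, minus strand: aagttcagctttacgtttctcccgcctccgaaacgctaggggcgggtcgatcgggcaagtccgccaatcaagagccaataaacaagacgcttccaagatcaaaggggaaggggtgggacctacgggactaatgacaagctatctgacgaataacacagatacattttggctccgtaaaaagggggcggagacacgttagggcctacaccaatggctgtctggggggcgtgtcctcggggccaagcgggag
Slc25a39, chr11:102407518-102407767, minus strand: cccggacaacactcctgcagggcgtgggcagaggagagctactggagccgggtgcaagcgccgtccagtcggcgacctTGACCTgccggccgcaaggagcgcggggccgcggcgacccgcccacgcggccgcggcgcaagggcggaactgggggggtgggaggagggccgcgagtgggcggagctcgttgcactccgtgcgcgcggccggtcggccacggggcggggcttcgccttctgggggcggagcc
Slc25a15, chr8:22398278-22398527, minus strand: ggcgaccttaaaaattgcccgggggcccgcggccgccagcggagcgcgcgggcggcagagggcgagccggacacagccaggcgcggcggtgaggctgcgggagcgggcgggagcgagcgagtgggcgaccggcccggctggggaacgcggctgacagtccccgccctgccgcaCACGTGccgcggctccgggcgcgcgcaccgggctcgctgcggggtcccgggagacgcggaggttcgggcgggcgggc
Slc25a45, chr19:5877572-5877821, plus strand: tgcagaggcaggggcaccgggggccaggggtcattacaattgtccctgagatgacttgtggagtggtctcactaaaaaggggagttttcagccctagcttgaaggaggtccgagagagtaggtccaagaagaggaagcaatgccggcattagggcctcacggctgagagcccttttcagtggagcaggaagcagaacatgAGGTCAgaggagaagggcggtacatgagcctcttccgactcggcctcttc

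The window shown for Slc25a47 ends at 108851128, inside the gene span given above and not at the start of that span, 108836046. The AGGTCA core began at position -153 from the start site of its window in Slc25a47 and -172 in Slc25a39, in both as its reverse complement TGACCT, and at -50 in Slc25a45. It occurred in 4 of the 29 matched members (13.8%, the other being Slc25a34), beside 18.1% of 27025 genes. CACGTG began at -77 in the window shown for Slc25a15, while a further Slc25a15 start site held none of these motifs. It occurred in 5 of 29 members (17.2%: Slc25a1, Slc25a13, Slc25a14, Slc25a15 and Slc25a33), beside 8.09% of genes. The cAMP response element occurred at 1 of 3 start sites of Slc25a25, beside 2.03% of genes, and the D-box in no matched member, beside 1.11% of genes. Slc25a28, first by p, held none of the 4 motifs in its window. These are matches of letters and not measured binding.

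The conditions were then fitted separately, with the F test of the 24-h cosine called at a nominal P of 0.01. In controls 8 members (21.6%) were called, beside 20.0% of all genes, and under IH 17 members (45.9%), beside 39.9%. Members called in both were Slc25a15, Slc25a22, Slc25a28, Slc25a35, Slc25a44 and Slc25a47. Slc25a51 was among the 2 called in controls alone. The 11 called under IH alone were Slc25a13, Slc25a16, Slc25a17, Slc25a20, Slc25a26, Slc25a32, Slc25a37, Slc25a39, Slc25a40, Slc25a45 and Slc25a46. The other 18 were called in neither. Of all genes, 15.5% were called in both, 4.55% in controls alone, 24.4% under IH alone and 55.6% in neither. All 4 metal and glutathione carriers were in the IH set, against Slc25a28 alone of the 4 in the control set.

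The imbalance among the members was not seen without control mouse 2 at ZT12. Then 18 members (48.6%) were called in controls, beside 27.1% of all genes, against the 17 under IH. The IH-alone class fell from 11 to 6 members (Slc25a13, Slc25a17, Slc25a20, Slc25a26, Slc25a45 and Slc25a46). The control-alone class rose from 2 to 7, among them Slc25a3, Slc25a5, Slc25a10, Slc25a14, Slc25a21 and Slc25a51. Among all genes, IH alone went from 24.4% to 19%, control alone from 4.55% to 6.17% and both from 15.5% to 20.9%. All 8 members called with the library remained called, and Slc25a37, Slc25a39 and Slc25a40 joined Slc25a28, so that all 4 metal and glutathione carriers were then called in controls too. Slc25a16, a carrier linked to coenzyme A, is an example: the 3 controls at ZT12 had 22.3, 4.87 and 19.9 FPKM, and its control P went from 0.81 with the library to 0.00538 without it. Slc25a37 went from 0.0223 to 0.00174 and Slc25a32 from 0.0214 to 2.84e-05. A call in 1 condition and not in the other does not show that the rhythms differ.

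The difference between the rhythms was therefore tested itself, as a difference in cosine terms between conditions. No member passed, and 0% of all genes did (0 of 13215 by limma at an adjusted p of 0.05, with 649 genes and 1 member at an unadjusted P under 0.05). The member was Slc25a45 (chromosome 19, 5877808 to 5885878, plus strand; unadjusted P = 0.0048, adjusted p = 0.898). Its controls had 20.2, 16.8 and 19.1 FPKM at ZT0 and 11.0, 8.90 and 13.1 FPKM at ZT12, against 16.2, 12.2 and 11.8 FPKM and 14.0, 17.4 and 15.2 FPKM under IH. All IH mice were below the controls at ZT0 and above them at ZT12, and the separately fitted peaks were at ZT22.1 in controls and ZT17.0 under IH. The next smallest were Slc25a35 and Slc25a42 (unadjusted P = 0.0574 and 0.0575). For Slc25a42 the controls at ZT0 had 56.7, 37.7 and 38.1 FPKM and the IH mice 25.4, 25.6 and 37.7 FPKM, where the highest IH value matched the lowest control values.

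Among the 6 members called in both conditions, 5 peaked earlier under IH, with a median shift of -1.48 h. For the same 6 members, a refit without control mouse 2 at ZT12 gave 4 earlier, with a median of -1.49 h. In that refit 11 members were called in both, and the shifts of those 11 as a set are not given here. Over the 2047 genes called in both with all libraries, 71.1% were earlier and the median shift was -0.65 h. Slc25a47 moved from ZT8.85 to ZT6.46, Slc25a35 from ZT22.3 to ZT20.0, Slc25a28 from ZT9.23 to ZT7.36, Slc25a15 from ZT22.0 to ZT20.9 and Slc25a44 from ZT20.0 to ZT19.3. Slc25a22 moved the other way, from ZT1.77 to ZT3.92. Samples were 4 h apart and none of these shifts passed the test of the difference.

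Levels under IH and control were compared over ZT4 and ZT8, within and at the end of the daily exposure (6 against 6 libraries, limma with time point as a term). Of the 37 members 1 was called higher under IH and 0 lower, beside 6.05% and 1.93% of all genes. At an unadjusted P under 0.05 there were 11 higher and 2 lower members, beside 20.1% and 7.0% of all genes. The median member difference was 0.10 on the log2(FPKM + 1) scale against 0.04 over all genes, and 25 of 37 members were positive beside 64.8% of genes. After median-of-ratios scaling 20 of 37 members were positive beside 50.1% of genes, and after quantile normalization 20 beside 51.4%. Slc25a11 was the only member to pass the test. By role, the difference was positive in 4 of 4 carboxylate carriers, 3 of 3 ADP/ATP and phosphate carriers and 4 of 4 metal and glutathione carriers. It was positive in 4 of 7 amino acid carriers, 5 of 8 nucleotide and cofactor carriers and 1 of 2 ATP-Mg/phosphate carriers. It was positive in 4 of 6 members without a settled substrate, 0 of 2 uncoupling-protein-like members and 0 of 1 carnitine carrier. Slc25a27, an uncoupling-protein-like symbol below 0.5 FPKM, was called higher under IH in the same limma test (0.17, SE 0.04, adjusted p = 0.0335). The other tested symbols below 0.5 FPKM, Slc25a2, Slc25a24 and Slc25a36, were not called. Under either scaling the carboxylate carrier Slc25a10, the glutathione carrier Slc25a39, the cofactor carriers Slc25a42 and Slc25a51 and the ATP-Mg/phosphate carrier Slc25a25 turned negative.

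The member called was Slc25a11, the oxoglutarate/malate carrier of the malate-aspartate shuttle (chromosome 11, 70644196 to 70647479, minus strand). At ZT4 it had 27.4, 32.5 and 24.7 FPKM in controls and 37.1, 35.2 and 36.0 FPKM under IH, and at ZT8 33.5, 39.8 and 39.7 FPKM and 45.4, 42.98 and 41.8 FPKM. The IH mice lay above the controls at both times, by 0.28 on the log2 scale (SE 0.07, adjusted p = 0.0316). This call was not stable: it was lost in 8 of 12 fits that left out 1 library (each IH ZT4 mouse, IH ZT8 mice 1 and 2, control ZT4 mice 1 and 3 and control ZT8 mouse 1) and in 4 of 11 other alternatives, with adjusted p up to 0.438. Its exons share bases with Rnf167 on the opposite strand. At ZT12 the difference of Slc25a11 was instead -0.34 (limma at single time points, unadjusted P = 0.00593, adjusted p = 0.0896). Its values overlapped there, and control mouse 2 at ZT12, which stood apart, is among those controls. Over all time points its difference was 0.04 (limma, adjusted p = 0.785).

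Other members with small p in this comparison did not pass. The phosphate carrier Slc25a3 (chromosome 10, 91116574 to 91124059) had 146, 156 and 138 FPKM in controls and 170.2, 164 and 168 FPKM under IH at ZT4, and 149, 172 and 165 against 178, 179 and 173 FPKM at ZT8. The 2 conditions did not overlap at either time (log2 difference 0.16, SE 0.04, adjusted p = 0.051). The citrate carrier Slc25a1 had 131, 126 and 118 against 155, 157 and 148 FPKM at ZT4, which did not overlap, and 124, 156 and 141 against 162, 159 and 136 FPKM at ZT8, which did (0.20, SE 0.07, adjusted p = 0.0771). At ZT12 the Slc25a1 difference was -0.28 (limma at single time points, adjusted p = 0.107). Slc25a5 differed by 0.14 (SE 0.05, adjusted p = 0.0936), with 252, 241 and 237 against 274, 279.8 and 275 FPKM at ZT4 and 246, 288 and 283 against 309.5, 288 and 276 FPKM at ZT8. The differences of these abundant carriers were small, and those of Slc25a5 overlapped at ZT8.

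On the lower side, Slc25a35 differed by -0.19 (SE 0.06, adjusted p = 0.0771) and Slc25a15 by -0.10 (SE 0.05, adjusted p = 0.227). Slc25a45 differed by -0.17 (SE 0.10, adjusted p = 0.313). Slc25a30, an uncoupling-protein-like carrier, had the largest difference of all members, -1.17 (SE 0.44, adjusted p = 0.119). It also varied most between mice: the ZT4 controls had 6.01, 42.3 and 10.1 FPKM and the ZT8 controls 9.89, 13.3 and 3.45 FPKM, against 7.25, 13.9 and 3.47 and 2.54, 2.23 and 1.89 FPKM under IH. Its conditions overlapped at ZT4, and at ZT8 all 3 IH mice were below the controls.

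**Figure D5:**
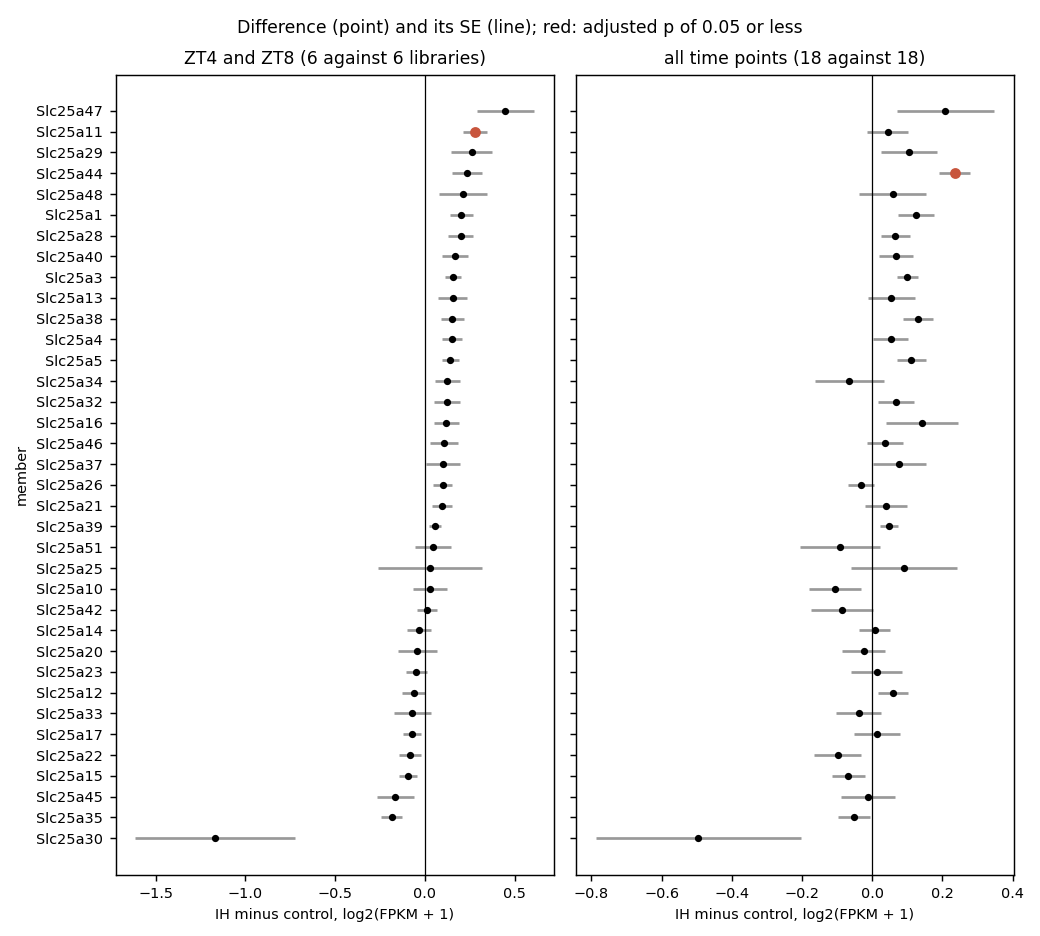
IH minus control on the log2(FPKM + 1) scale for 36 of the 37 members over ZT4 and ZT8 (left, 6 against 6 libraries) and over all time points (right, 18 against 18), with its SE as a line; the horizontal scales differ between the panels. Red points passed an adjusted p of 0.05, Slc25a11 on the left (0.28) and Slc25a44 on the right (0.23).

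Taken time point by time point, the number of members whose conditions did not overlap was highest at ZT4. There 16 members (43.2%) had all 3 IH mice above all 3 controls, beside 26.7% of all genes, and 1 (Slc25a35) had them below, beside 7.79%. The 16 were Slc25a1, Slc25a3, Slc25a4, Slc25a5, Slc25a11, Slc25a13, Slc25a16, Slc25a21, Slc25a28, Slc25a32, Slc25a34, Slc25a37, Slc25a42, Slc25a44, Slc25a46 and Slc25a47. These counts are on the deposited scale. The median-of-ratios factors, by which that scaling divides the values, were higher in every IH library at ZT4 (1.04 to 1.06) than in every control there (0.94 to 1.01). At ZT8 there were 5 above (Slc25a3, Slc25a11, Slc25a26, Slc25a38 and Slc25a39), beside 11.0%, and 4 below (Slc25a12, Slc25a14, Slc25a30 and Slc25a42), beside 7.16%. Outside the exposure, ZT16 had 5 above and 1 below, beside 10% and 3.84%. ZT20 had 5 above and 3 below, beside 11.8% and 4.18%. ZT12 had 2 above and 2 below, beside 6.34% and 6.74%, and ZT0 1 above and 3 below, beside 4.59% and 6.21%. In the limma test at single time points (all 36 libraries in 1 fit, 3 against 3 mice), no member passed an adjusted p of 0.05 in either direction at any time. The shares of all genes higher and lower under IH were 0.885% and 0.272% at ZT4, 0.00757% and 0% at ZT8, 0.272% and 0.499% at ZT12, 0.00757% and 0% at ZT16, and 0% in both directions at ZT0 and ZT20. At an unadjusted P under 0.05, 8 members were higher and 1 lower at ZT4, beside 12.8% and 3.65% of all genes, and 6 higher and 4 lower at ZT12, beside 12.9% and 11.7%. At ZT0 1 was higher and 4 were lower, beside 3.22% and 4.34% of genes. Control mouse 2, which stood apart, is 1 of the 3 controls at ZT12. The smallest adjusted p were 0.0734 for Slc25a44 at ZT12 (log2 difference 0.37) and 0.0747 for Slc25a28 at ZT4 (0.32).

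Averaged over all 6 time points (18 against 18 libraries), 1 member was called higher under IH, beside 0.303% of all genes, and 0 lower, beside 0.0530%, with 5 higher and 0 lower members at an unadjusted P under 0.05, beside 8.44% and 2.34% of genes. The member called was Slc25a44, the branched-chain amino acid carrier (chromosome 3, 88410498 to 88425139, minus strand), with a difference of 0.23 (SE 0.05, adjusted p = 0.0109). Its level was 18.3 ± 2.96 FPKM in controls (lowest 12.6, median 19.6, highest 22.7) and 21.7 ± 2.91 FPKM under IH (lowest 16.5, median 22.1, highest 27.4). At ZT4 the controls had 16.2, 13.6 and 15.8 FPKM and the IH mice 20.5, 16.5 and 18.0 FPKM. At ZT12 they had 17.1, 12.6 and 17.1 and 19.3, 21.8 and 20.0 FPKM, and at ZT20 20.3, 21.1 and 19.4 and 25.3, 23.8 and 27.4 FPKM. The IH mice lay above the controls at these times and at ZT0, and the conditions overlapped at ZT8 and ZT16. The call held in all 45 alternatives and fits that left out 1 library, with adjusted p of at most 0.0281.

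Slc25a44 also varied over 24 h in both conditions, with peaks at ZT20.0 in controls and ZT19.3 under IH. Slc25a3 (0.10, SE 0.03, adjusted p = 0.158) and the glycine carrier Slc25a38 (0.13, SE 0.04, adjusted p = 0.228) followed and did not pass. Slc25a38 had 9.95, 10.2 and 10.2 FPKM in controls and 11.6, 12.1 and 12.6 FPKM under IH at ZT8, with no overlap, and 10.9, 10.9 and 8.34 and 11.1, 10.8 and 9.69 FPKM at ZT4, which overlapped. The median member difference over all time points was 0.04, against 0.03 over all genes.

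Members differed widely in how well the 3 mice of a group matched. Slc25a25 had control values of 36.8, 143 and 145 FPKM at ZT4 and 34.2, 95.2 and 88.7 FPKM at ZT0. It was not called for 24-h variation (adjusted p = 0.0569) with a fitted ratio of 1.54-fold, and its control mice at ZT4 differed by more than its fitted peak and trough. Slc25a30, with a fitted ratio of 1.89-fold, was likewise not called (adjusted p = 0.145).

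For comparison, 2 other lists were described in the same way. Of 26 other mitochondrial transporters, among them the pyruvate carrier subunits Mpc1 and Mpc2, the calcium uniporter Mcu and the outer membrane channels Vdac1 and Vdac2, 22 were tested. In these 13 (59.1%) were called for 24-h variation over both conditions, 6 (27.3%) in controls and 10 (45.5%) under IH. Of 15 genes for import of carriers into the inner membrane, 14 were tested, and 11 (78.6%), 3 (21.4%) and 6 (42.9%) were called. Over ZT4 and ZT8, Vdac2 in the first list and Tomm20 and Tomm7, receptor and pore parts of the outer membrane translocase, in the second were called higher under IH. The median differences there were 0.06 and 0.03, beside 0.10 for the members.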

How the data were processed

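The labels gave the condition, ZT and replicate of the 36 samples. The authors sequenced strand-specific poly-A libraries, mapped them against mm10 by TopHat, which calls Bowtie2, and derived FPKM for every replicate by Cufflinks; the submitters' processing notes name TopHat2 2.1.1 and Cufflinks 2.2.1. The gene annotation was not given in the sources used here. IH and control FPKM values were deposited in separate tables whose columns carry identical names, so the condition rests on the tables' names. Each table held 24883 rows, and 280 symbols on more than 1 row were left out. No counts were used here, so depth is unknown and no counting interval is given.

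Values were tested as log2(FPKM + 1) for the 13215 genes that averaged 0.1 FPKM or more, with limma 3.58.1 in R 4.3.3 and an intensity trend, so changes of low genes such as Slc25a35 are understated. Rhythms were F tests of a 24-h cosine, called at a nominal P of 0.01 within a condition, after the study's threshold, and otherwise at a Benjamini-Hochberg adjusted p of 0.05 over all genes; levels at ZT4 and ZT8 had time point as a term. Scripts were tested on simulated data. Figures used Python 3.11.15 and matplotlib 3.10.9.

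The members and lists were chosen with earlier results of these data known. Values in single mice are given for the 3 members with the highest mean, the 5 with the smallest p for 24-h variation, the 4 leading by p among higher and among lower differences over ZT4 and ZT8, and the 3 with the smallest p over all time points and for the difference of rhythm; others serve as examples. Slc25a16, Slc25a22, Slc25a25, Slc25a32, Slc25a37, Slc25a46 and the 16 members apart at ZT4 were named after their values were seen. Samples were treated as unpaired. The deviations of same-numbered samples correlated between -0.179 and 0.294 (mean 0.0539). All correlations were positive at ZT12 (0.136 to 0.294) and ZT20 (0.0502 to 0.164), and signs were mixed at the other time points. Such correlations cannot show that samples were unpaired. Another pseudocount, filter, scaling, spread, test shape, threshold and leaving out each library were tried. 1 member was counted throughout but is not reported here by name or in the figures.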

Additional observations from a re-analysis of the deposited data

Results flagged for a closer look

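For 5 members all 3 IH mice lay above all 3 controls at one time point and below them at another, so that the sign of IH minus control turned between time points. The share of all genes with such a turn was not counted, so whether 5 of 37 is unusual cannot be told. The largest change of sign was that of Slc25a47, whose difference at ZT4 exceeded that at ZT16 by 1.07 on the log2(FPKM + 1) scale (0.78 against -0.29). For Slc25a45 the difference at ZT12 exceeded that at ZT0 by 0.94, for Slc25a4 that at ZT4 exceeded that at ZT12 by 0.48, for Slc25a42 that at ZT4 exceeded that at ZT20 by 0.41 and for Slc25a26 that at ZT8 exceeded that at ZT12 by 0.34. The library of control mouse 2 at ZT12 enters the values of Slc25a45, Slc25a4 and Slc25a26, which were 0.81, 0.40 and 0.28 without it. The pairs of time points were chosen for their signs, so these differences themselves were not tested. In a limma test of any change of the IH minus control difference over the 6 time points, the adjusted p of these members was 0.417 for Slc25a47, 0.146 for Slc25a45, 0.294 for Slc25a4, 0.276 for Slc25a42 and 0.471 for Slc25a26. That test called 0 of the 37 members and 18 of the 13215 genes, with 8 members and 1876 genes at an unadjusted P under 0.05.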

How the results depend on the processing

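Of the values of named members, 2904 kept their direction and side of the threshold, 22 lost a call, 63 gained one and 15 changed sign, all 15 without a call in either fit. The difference over ZT4 and ZT8 turned to -0.00954 and -0.0198 for Slc25a39 and to -0.0525 and -0.0403 for Slc25a42 after median-of-ratios scaling and quantile normalization, and to -0.108 for Slc25a42 from ZT8 alone; with libraries left out it ran from -0.038 to 0.032 for Slc25a42. Over all time points Slc25a11 turned to -0.00099 after median-of-ratios scaling, and Slc25a45 ran from -0.048 to 0.020 with libraries left out. The number rhythmic in controls was 8 and became 16 after median-of-ratios scaling, 13 after quantile normalization, 15 with a spread shared by both conditions, 16 without the 3 libraries with Saa1 above 10000 FPKM (an alternative chosen after seeing the data) and 7 to 18 when each library was left out, the 18 without control ZT12 replicate 2. Over all alternatives it ranged from 12 to 22 under IH, and from 20 to 28 over both conditions. The 1 member higher under IH at ZT4 and ZT8 became 0 without a filter, 2 with a mean of at least 1 FPKM, 2 without the intensity trend, 3 at a nominal P of 0.01, 3 from ZT4 alone, 0 from ZT8 alone, 0 in the fit of all 12 groups and 0 to 3 when each library was left out. The 0 lower became 1 at a nominal P of 0.01 and 0 to 1 with libraries left out, the 1 without IH ZT8 replicate 3 or control ZT8 replicate 3. Over all time points the 1 higher became 3 at a nominal P of 0.01 and stayed at 1 to 1 with libraries left out. At single time points the 0 members called became 4 higher and 1 lower at ZT4 without the Saa1-high libraries, 0 to 3 higher at ZT4 with libraries left out (3 without control ZT12 replicate 2, and 1 without control ZT12 replicate 1 or control ZT4 replicate 2), 2 lower at ZT12 after median-of-ratios scaling, and at ZT12 0 to 5 higher (5, 4 and 1 without control ZT12 replicate 1, control ZT12 replicate 3 and IH ZT12 replicate 1) and 0 to 1 lower (without control ZT12 replicate 3). The cause of these changes was not tested. The share of all genes rhythmic in controls was 20.0% with all libraries and 27.1% without control ZT12 replicate 2. For the other alternatives the share of all genes is not given here, so their counts are not read as particular to the members. With the replicate block 9 members were rhythmic in controls, 17 under IH and 24 over both conditions. With that block, 1 and 0 were higher and lower at ZT4 and ZT8, and 1 and 0 over all time points. It gave 0 for the difference of rhythm and 0 at each time point. The main tests treated the samples as unpaired. Limits are 3 mice per group, samples 4 h apart, unknown depth, and the condition of each table, which rests on its name.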
